A study of Mus musculus with 4 samples.

Results

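Foxr2 binding was examined at 10 genes of the circadian clock and its output, out of 21938 protein-coding genes on the assembled chromosomes: Tef, Dbp, Hlf and Nfil3, whose products are basic leucine zipper (bZIP) transcription factors, and Per1, Per2, Cry1, Cry2, Nr1d1 and Arntl. The genes were chosen by membership in this pathway and selected on measured values of these same libraries, since Tef was known to hold a site among the strongest. The fold at Tef is therefore given as a description, and no test was run on any of the 10 genes. A peak was assigned to a gene if it touched the annotated gene or its flanks of 10 kb.

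The mammalian clock is a loop of transcription and repression. CLOCK and ARNTL (also called BMAL1) bind E-box motifs and activate the Per and Cry genes, whose proteins then repress CLOCK and ARNTL, while NR1D1 (REV-ERB alpha) represses Arntl through ROR elements. The proline- and acidic-rich (PAR) bZIP factors TEF, DBP and HLF carry the rhythm to output genes by activating D-box motifs that NFIL3 represses, and in the brain they are known for control of vitamin B6 metabolism.

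Binding was profiled by CUT&RUN, in which an antibody steers a nuclease to a DNA-bound protein and the freed fragments are sequenced. The antibody recognised the V5 tag. The 2 Foxr2 p53LOF replicates came from 1 neurosphere line, grown from a tumor of C57BL/6J mice that had been electroporated in utero with a piggyBac vector, in which the CAG promoter drives FOXR2 with a C-terminal V5 tag and GFP, and with a CRISPR guide against Trp53. The 2 V5 control replicates came from cell lines of a separate electroporation model that lacks the V5 tag and whose label gives the genotype H3.3G34R, so the groups differ in more than the tag. Each sample held 500000 cells fixed with 0.1% formaldehyde for 1 minute. No source states that replicates were separate cultures, so differences between them may be technical. Foxr2 expression in this line is set by a vector, and the peak lists hold no RNA values, so neither the cell type nor expression of the clock genes could be checked here.

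The deposited peak lists held 31909 and 38580 peaks in Foxr2 p53LOF replicates 1 and 2, and 308 and 124 peaks in the V5 controls. A fold is the fragment count at a peak's summit plus 1, divided by the background of that library plus 1. The background, recovered from the folds and p-values, was 1.26 fragments in Foxr2 p53LOF replicate 1, 2.04 in replicate 2, and 1.69 and 0.6425 in the controls. A peak was kept if it overlapped no control peak, its fold was above 6, its −log10 q was above 6 and its length was under 10000 bp. The fold minimum needs 13 fragments in replicate 1 and 18 in replicate 2. A stretch covered by kept peaks of both replicates was called a reproducible site, of which there were 11947, and each was ranked by the lower of its 2 folds.

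Of the 10 genes, 9 had a reproducible site, against a background of 50.0% of all protein-coding genes. The exception was Arntl. A start site, meaning a site no more than 1 kb from the start of a protein-coding transcript, was also present at 9 of the 10, against 39.2% of all genes. All 10 had peaks of both Foxr2 p53LOF replicates before the filter, against 63.8% of all genes, and 6 had at least 2 reproducible sites (Tef, Dbp, Per1, Per2, Cry1 and Nr1d1), against 18.4%. A start site whose lower fold was above 20 was found at 4 of the 10 (Tef, Per1, Dbp and Nr1d1), against 3.29% of all genes. Neither V5 control replicate had a peak in any of the 10 gene regions. The controls held only 308 and 124 peaks in all, and the share of all genes without one is not given here. The shares above stand side by side without a test, since the genes were picked with results known.

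The 10 regions held 32 peaks in replicate 1 and 40 in replicate 2, of which 19 and 22 passed the filter. All 13 and 18 peaks that failed did so on fold (some also on q), and 0 were lost to control overlap or to length. Just inside the fold minimum lay peaks of Dbp and Hlf in replicate 1 (6.19, 13 fragments) and of Arntl in replicate 2 (6.24, 18 fragments). Just outside lay peaks of Per1 and Tef in replicate 1 (5.74, 12 fragments) and of Tef in replicate 2 (5.91, 17 fragments). The kept peaks formed 18 reproducible sites, 10 at a start of the gene itself and 8 elsewhere. The fold was higher in replicate 2 at 16 of these 18 sites, and at 75.1% of all reproducible sites. The median ratio of replicate 2 to replicate 1 was 1.18 over the 18 sites and 1.16 over all sites.

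**Figure D1:**
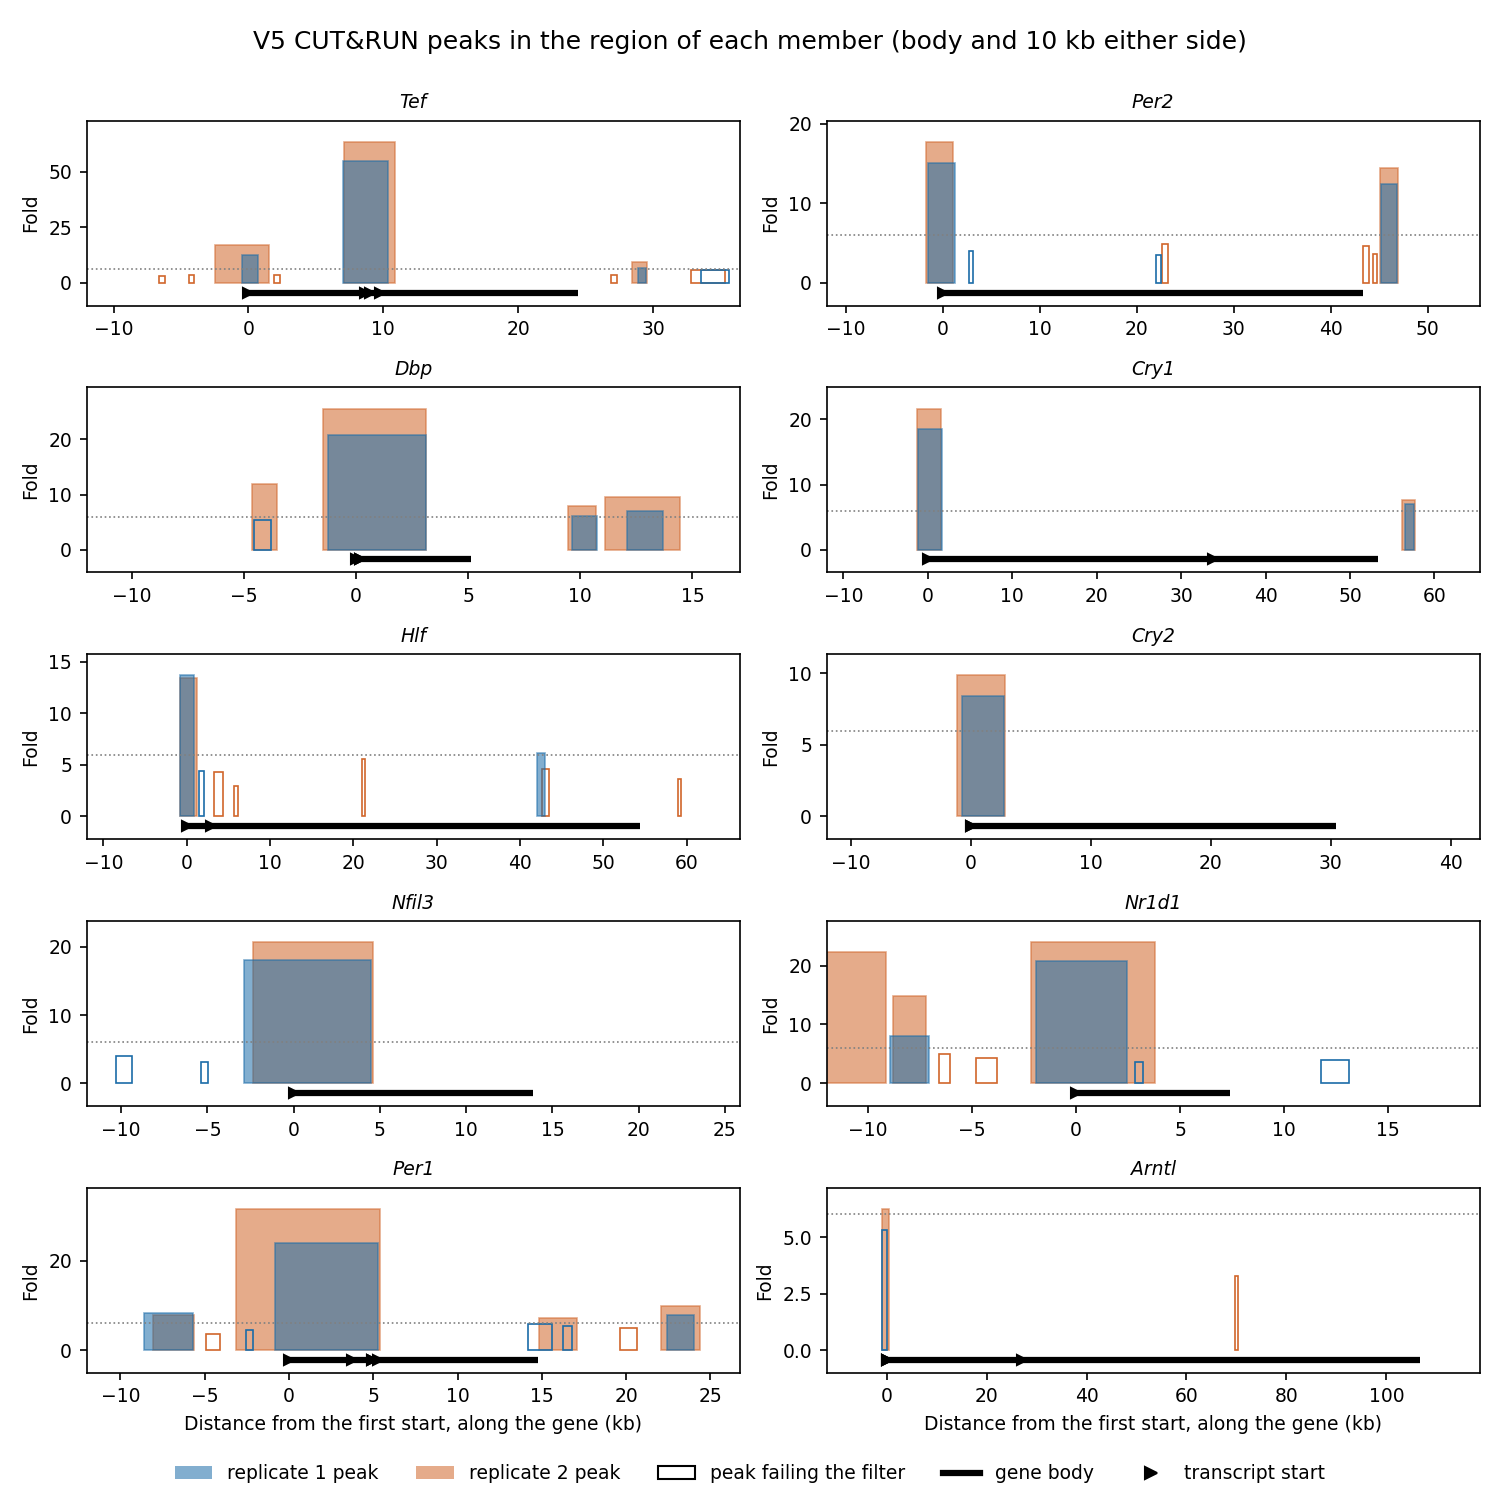
V5 CUT&RUN peaks of both Foxr2 p53LOF replicates in the region of each of the 10 genes. The horizontal axis is the distance from the first annotated start along the gene in kb, and each bar spans a peak and rises to its fold at the summit (linear axis, dotted line at the fold minimum of 6); open bars failed the filter, the black line is the gene body and arrowheads are transcript starts. The tallest bars lie over a start in every gene, and at Tef they lie over the later starts and reach 54.8 and 63.4.

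Tef, for thyrotroph embryonic factor (ENSMUSG00000022389.15, chr15:81802421-81826863, plus strand, GRCm38), held the site for which the set was chosen. The site ran from 81809494 to 81812732 (3239 bp) and covered the 3 later transcript starts at 81811046, 81811414 and 81812159. Its fold was 54.8 in replicate 1 (123 fragments at the summit, 95% Poisson interval of the fold 45.6 to 65.3) and 63.4 in replicate 2 (192 fragments, 54.8 to 73.0). All intervals given here cover counting error alone. The site ranked 7 of 11947 by lower fold and 6 of the 7807 sites at a protein-coding start. In the separate lists it ranked 7 in replicate 1 and 12 in replicate 2, and 3 among the kept peaks of chromosome 15 in both. The summits, at 81811160 and 81811152, lay 8 bp apart in an intron, 114 and 106 bp downstream of the second start. Summits fell within 10 bp of each other at 9.17% of all sites.

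The first Tef start, at 81802421, had a weaker site of its own, from 81801911 to 81803099. Its fold was 12.4 in replicate 1 (27 fragments, 8.30 to 17.8) and 16.8 in replicate 2 (50 fragments, 12.5 to 22.0), and its rank was 2693. The antisense gene Gm17597 also starts within 1 kb of these summits. The third Tef site, past the gene's 3′ end, from 81831338 to 81831896, was weak, with folds of 6.63 (3.82 to 10.8) and 9.53 (6.44 to 13.6), and no annotated start lay within 1 kb of its summits.

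Reference sequences at the summits of both Tef start sites are shown (GRCm38, RefSeq genome, plus strand), and neither stretch covers its whole site. The first stretch holds both summits of the strong site and runs from the end of the second start's first exon to the base before the next start, and the second stretch is the 300 bp before the first start. Capitals mark an E-box (CACGTG) and a match to TNGGTCA (on the minus strand) in the first. They mark an ETS core (CCGGAAG, on the minus strand) in the second. A ROR element here means any match to the short pattern TNGGTCA, in which N is any base. Such a match need not be a full element, and the match marked reads TTGGTCA.
Tef later starts, chr15:81811147-81811413: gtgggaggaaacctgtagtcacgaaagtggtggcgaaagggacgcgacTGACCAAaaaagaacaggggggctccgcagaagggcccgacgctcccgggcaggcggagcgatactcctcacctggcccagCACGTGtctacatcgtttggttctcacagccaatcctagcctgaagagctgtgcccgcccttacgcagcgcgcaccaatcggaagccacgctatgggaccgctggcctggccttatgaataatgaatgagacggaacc
Tef first start, chr15:81802121-81802420: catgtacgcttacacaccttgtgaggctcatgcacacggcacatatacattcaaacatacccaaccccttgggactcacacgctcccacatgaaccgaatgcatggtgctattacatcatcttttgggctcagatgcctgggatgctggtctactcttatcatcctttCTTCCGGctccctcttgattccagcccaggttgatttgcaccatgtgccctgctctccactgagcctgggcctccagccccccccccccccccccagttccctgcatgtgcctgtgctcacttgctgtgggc
The ROR element at 81811195 to 81811201 was the match nearest to the strong summits, at 35 and 43 bp. The E-box shown, at 81811276 to 81811281, lay 116 and 124 bp away, and another E-box on the other side, at 81811054 to 81811059, lay 101 and 93 bp away inside the untranslated first exon. The remaining E-box of the site lay at 81810943 to 81810948. At the first start the ETS core lay 52 and 118 bp from the summits. That weaker site also held clock motifs past the printed stretch. An E-box lay at 81802546 to 81802551, 199 and 133 bp from the summits. Another E-box lay at 81803091 to 81803096 and a ROR element at 81802867 to 81802873. Over their full lengths both sites thus held E-boxes and a ROR element, while the ETS core was in the weaker site alone.

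The protein-coding genes whose start sites had the pair of folds nearest to that of Tef were Ppp1r15b, a regulatory subunit of the phosphatase of the translation factor eIF2 alpha (50.4 and 64.1), and Mttp, for triglyceride transfer to lipoproteins, with Trmt10a, a tRNA methyltransferase, at 1 shared site (59.2 and 66.4). Next came Ppp2r5a, a regulatory subunit of protein phosphatase PP2A (49.9 and 64.4), and 0610009B22Rik (48.6 and 63.4). The distances ranged from 0.122 to 0.173 on the log2 scale over the 2 replicates. Nearness in fold says nothing of shared control.

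Dbp, the D-box binding PAR bZIP activator known for its large daily rhythm (ENSMUSG00000059824.12, chr7:45705088-45710203, plus strand), had a start site from 45703824 to 45708219 that covered its 3 starts. Its fold was 20.8 in replicate 1 (46 fragments, 15.3 to 27.6) and 25.6 in replicate 2 (77 fragments, 20.3 to 31.9), which placed it at rank 563. The summits lay 500 and 452 bp upstream of the first start, inside the body of the neighbouring gene Car11. The other 2 sites in the region were weak, with folds of 6.19 and 7.88 (45714700 to 45715802) and of 7.07 and 9.53 (45717174 to 45718789). Both lay at the starts of Rpl18, a ribosomal protein gene, and Sphk2, a sphingosine kinase gene, which were assigned to Dbp by distance alone. A peak at the start of Car11 had a fold of 11.8 in replicate 2, but the overlapping peak of replicate 1, at 5.30, failed the filter.

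Hlf, for hepatic leukemia factor, another PAR bZIP gene (ENSMUSG00000003949.16, chr11:90336536-90390895, minus strand), had 1 site, from 90389962 to 90391646. Its fold was 13.7 in replicate 1 (30 fragments, 9.38 to 19.4) and 13.5 in replicate 2 (40 fragments, 9.72 to 18.2). Unlike most sites it was not higher in replicate 2. The summits lay 2 bp apart in the untranslated first exon, 161 and 163 bp downstream of the start. An intronic peak of replicate 1 just inside the filter (6.19) overlapped a replicate 2 peak of 4.60 and gave no site. The intervals of Dbp and Hlf overlapped in replicate 1, and those of Dbp lay above those of Hlf in replicate 2.

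Nfil3, the bZIP repressor at D-boxes (ENSMUSG00000056749.7, chr13:52967209-52981073, minus strand), had a single broad site from 52976583 to 52983404. Its fold was 18.1 in replicate 1 (40 fragments, 13.1 to 24.5) and 20.7 in replicate 2 (62 fragments, 15.9 to 26.4). The peaks were 7364 and 6936 bp long, longer than 99.7% and 98.95% of the kept peaks of their libraries. The summits lay 2044 bp apart, 930 bp downstream of the only start in an intron in replicate 1 and 1114 bp upstream of it in replicate 2. Summits lay more than 300 bp apart at 30.3% of all sites. The replicates thus share the domain at Nfil3 but not the position of its highest point.

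**Figure D2:**
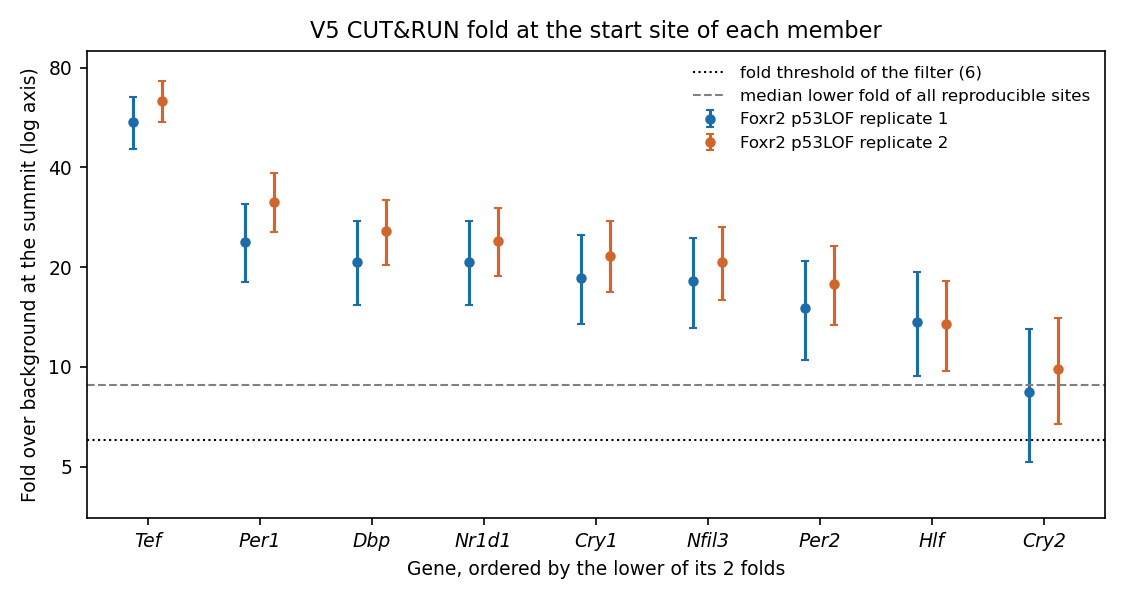
Fold over background at the strongest start site of each of the 9 genes with a site, on a log axis, for the 2 Foxr2 p53LOF replicates. Points are folds at the summit and bars are 95% Poisson intervals of the fragment count (counting error only); Tef, at 54.8 and 63.4, is the gene chosen for its fold, and Cry2, at 8.39 and 9.86, lies nearest to the median lower fold of all sites (8.84, dashed line).

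Per1 and Per2 encode the period proteins, which enter the nucleus with cryptochromes and repress CLOCK and ARNTL. Per1 (ENSMUSG00000020893.17, chr11:69095217-69109960, plus strand) had the second highest start site of the set, from 69094406 to 69100495. Its fold was 23.9 in replicate 1 (53 fragments, 18.0 to 31.1) and 31.5 in replicate 2 (95 fragments, 25.6 to 38.5), and it ranked 328. The summit lay at the same base, 69095384, in both libraries, 167 bp downstream of the first start in an intron, which was the case at 0.619% of all sites. The peaks were 6090 and 8561 bp long. None of the motifs searched lay in the 300 bp around the summits of the Dbp, Hlf and Cry2 start sites. The sequence at the shared Per1 summit is shown because it has none of them either.
Per1 first intron, chr11:69095304-69095603: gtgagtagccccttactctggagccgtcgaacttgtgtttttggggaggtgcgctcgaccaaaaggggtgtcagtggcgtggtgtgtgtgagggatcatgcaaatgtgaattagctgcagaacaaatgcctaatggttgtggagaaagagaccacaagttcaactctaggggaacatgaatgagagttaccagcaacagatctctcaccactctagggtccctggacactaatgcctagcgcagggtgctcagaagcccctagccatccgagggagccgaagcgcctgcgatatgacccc
Its flanks did hold matches, with E-boxes 312 and 496 bp from the summit, an ETS core at 356 bp and a ROR element at 331 bp.

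The 2 other sites in the Per1 region were weak. The upstream site, from 69087157 to 69089548, had folds of 8.39 and 7.88 and lay at the start of Vamp2, a synaptic vesicle SNARE gene. The downstream site, from 69117628 to 69119241, had folds of 7.95 and 9.86 and no start in GENCODE within 1 kb of the midpoint of its summits. RefSeq annotates a tRNA gene 127 bp and a predicted start of Hes7, a Notch-controlled repressor gene, 239 bp from the replicate 2 summit. A further peak of 7.23 in replicate 2 overlapped a peak of 5.74 in replicate 1 and gave no site.

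Per2 (ENSMUSG00000055866.9, chr1:91415982-91459324, minus strand) had a start site from 91458315 to 91460849 with folds of 15.0 in replicate 1 (33 fragments, 10.5 to 20.9) and 17.7 in replicate 2 (53 fragments, 13.4 to 23.1). The summits lay 335 and 296 bp upstream of the start. The intervals of Per1 and Per2 overlapped in replicate 1 and were apart in replicate 2, so the order of the 2 period genes was clear of counting error in 1 library only. A second site in the Per2 region, from 91412539 to 91414138, had folds of 12.4 (8.30 to 17.8) and 14.5 (10.6 to 19.4). It lay at the start of Hes6, a basic helix-loop-helix gene of neurogenesis, beyond the 3′ end of Per2.

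Cry1 and Cry2 encode the cryptochromes, the main repressors of CLOCK and ARNTL. Cry1 (ENSMUSG00000020038.10, chr10:85131700-85185064, minus strand) had a start site from 85183490 to 85186247 with folds of 18.6 in replicate 1 (41 fragments, 13.4 to 25.0) and 21.7 in replicate 2 (65 fragments, 16.8 to 27.6). Its summits lay 166 and 217 bp upstream of the first start. The sequence upstream of the start is shown for its E-box in capitals, 116 and 167 bp from the summits (minus strand, the strand of the gene).
Cry1 upstream, chr10:85185080-85185379: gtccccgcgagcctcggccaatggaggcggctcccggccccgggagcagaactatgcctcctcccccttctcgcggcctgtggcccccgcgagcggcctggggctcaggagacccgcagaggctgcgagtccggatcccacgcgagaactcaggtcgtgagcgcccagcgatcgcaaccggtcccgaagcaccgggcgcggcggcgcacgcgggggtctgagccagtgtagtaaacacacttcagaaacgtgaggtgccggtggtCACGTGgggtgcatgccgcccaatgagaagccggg
A weak site at the other end, from 85127496 to 85128558, with folds of 7.07 and 7.56, lay at the start of Mterf2, a gene of mitochondrial transcription.

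Cry2 (ENSMUSG00000068742.11, chr2:92403646-92434043, minus strand) had the weakest start site of the 9, from 92431232 to 92434781. Its fold was 8.39 in replicate 1 (18 fragments, 5.16 to 13.0) and 9.86 in replicate 2 (29 fragments, 6.71 to 14.0), just below the median lower fold of all sites (8.84). The summits lay in a coding exon 162 and 106 bp downstream of a start. The intervals of the 2 cryptochrome genes were apart in both replicates, with Cry1 above Cry2.

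Nr1d1 (ENSMUSG00000020889.11, chr11:98767932-98775333, minus strand) had a start site from 98772912 to 98777263 with folds of 20.8 in replicate 1 (46 fragments, 15.3 to 27.6) and 24.0 in replicate 2 (72 fragments, 18.8 to 30.1). It tied with Dbp at rank 563, and the replicate 1 folds of both rest on the same number of fragments. The summits lay 432 bp apart, 318 bp upstream of the start in replicate 1 and 114 bp downstream of it, in the untranslated first exon, in replicate 2. The upstream sequence holds the replicate 1 summit and, in capitals, an E-box 44 bp from it (minus strand, the strand of the gene). That E-box lay 476 bp from the replicate 2 summit.
Nr1d1 upstream, chr11:98775501-98775800: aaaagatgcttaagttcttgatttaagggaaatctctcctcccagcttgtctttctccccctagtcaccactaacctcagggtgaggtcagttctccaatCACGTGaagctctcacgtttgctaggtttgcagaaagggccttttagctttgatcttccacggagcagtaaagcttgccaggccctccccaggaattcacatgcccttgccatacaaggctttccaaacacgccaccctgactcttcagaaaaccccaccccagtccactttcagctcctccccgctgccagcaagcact
A second Nr1d1 site lay upstream, 8022 and 7952 bp from the start by its summits, from 98782532 to 98784125, with no annotated start nearby. Its folds were 7.95 in replicate 1 (17 fragments, 4.82 to 12.5) and 14.8 in replicate 2 (44 fragments, 10.8 to 19.7), a ratio above that at the start, though the intervals overlapped. A broad replicate 2 peak of 22.3 also reached into the region from further upstream. The overlapping replicate 1 peak, of 16.8, began 55 bp outside the 10 kb limit and was not counted.

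Arntl, the gene of the activator BMAL1 (ENSMUSG00000055116.8, chr7:113207465-113314126, plus strand), was the only member without a reproducible site. Both replicates had a peak at its start, with a fold of 5.30 in replicate 1 (11 fragments, 2.87 to 9.14) and of 6.24 in replicate 2 (18 fragments, 3.83 to 9.67). The replicate 1 peak failed on fold and q and the replicate 2 peak passed, and their intervals overlapped almost completely. The signal at this start thus lay near the limit set by the filter, and its absence is not shown. A further peak of replicate 2, in an intron, had a fold of 3.29.

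Ordered by the lower fold of the strongest site, the genes ran Tef, Per1, Dbp and Nr1d1 (equal), Cry1, Nfil3, Per2, Hlf and Cry2. Tef leads by the value for which it was chosen. Among the other 8 genes, the counting intervals of neighbours in that order overlapped in both replicates. The median lower fold of the 9 start sites was 18.6, compared with 10.2 over all protein-coding genes with a start site and 8.84 over all sites. At 8 of the 9 genes the start site lay above the median of all sites. The same share over all genes with a start site is not given here, and their median (10.2) itself lies above 8.84.

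**Figure D3:**
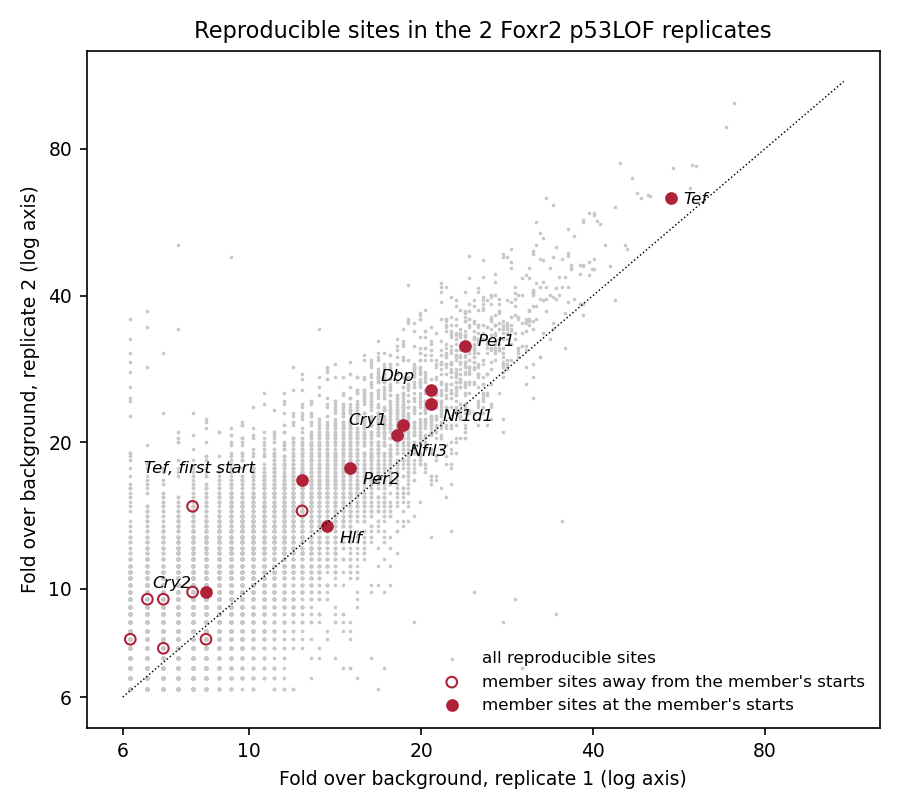
Fold in replicate 1 against fold in replicate 2 for all 11947 reproducible sites (grey) and for the 18 sites of the clock and PAR bZIP genes (red), on log axes with the line of equal folds dotted. Filled points are sites at a start of the gene and open points are sites elsewhere in its region; most filled points lie in the upper range of the cloud, with Tef near its end, and 16 of the 18 red points lie above the line.

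The 8 sites away from a start of the gene itself had lower folds between 6.19 and 12.4. The highest of them, at Hes6, equalled the site at the first Tef start in lower fold and exceeded the Cry2 start site. Of these sites, 5 of the 8 were at the starts of other genes (a pair at Rpl18 and Sphk2, and 1 each at Vamp2, Hes6 and Mterf2). The remaining 3 (downstream of Tef, downstream of Per1 and upstream of Nr1d1) were near no start in GENCODE.

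The motifs of the clock itself were counted in 300 bp windows centred on the midpoint of both summits, on both strands. Where the summits lie more than 300 bp apart, as at Nfil3 and Nr1d1, such a window holds neither summit. A D-box (TTANGTAA), the element bound by TEF, DBP, HLF and NFIL3, was in 0 of the 10 windows at the genes' own starts and in 1.59% of windows of all 11943 sites on the assembled chromosomes. An E-box (CACGTG) was in 2 of 10 (the strong Tef site and Cry1) and in 9.34% of all windows. A ROR element (TNGGTCA) was in 2 of 10 (the strong Tef site and Nfil3) and in 8.68%. The Nfil3 match, at 52981045 to 52981051, lay 902 and 1136 bp from the summits. A window on the replicate 1 summit of Nfil3 held a different match, at 52980160 to 52980166, and a window on the replicate 2 summit held none. The cyclic AMP response element (TGACGTCA) was in 0 of 10 and in 1.37%, and the ETS core (CCGGAAG) was in 2 of 10 (the first Tef start and Per2) and in 9.04%. Over the full length of the 10 start sites, 36.6 kb in all, the density of E-boxes was 0.546 per kb, with 5 at Per1 and 5 at Nr1d1, compared with 0.224 per kb over all sites. The density of ROR elements was 0.574 per kb (0.347 over all sites) and that of D-boxes was 0.219 per kb (0.0910 over all sites), where 4 of the 8 D-boxes lay at Nfil3 and 2 at Per2. ETS cores were at 0.164 per kb, compared with 0.204 over all sites. The 10 sites all lie at starts, whereas all sites include those away from starts. No share or density was computed over start sites alone, so these comparisons set unlike sites side by side. These matches describe letters in the reference sequence and not bound factors.

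The RefSeq promoter table (GRCm38.p6, windows of 300 bp around a start) held 12 windows of 9 members; Per2 was the member without an entry. An E-box was in 4 of the 12 (1 for each of 2 Tef starts, a later Per1 start and Cry1), compared with 7.15% of all 32817 promoter windows. The first Per1 start, which lies near the shared summit, had no window. A ROR element was in 5 (Tef, Nfil3, Cry2 and 2 starts of Arntl), compared with 11.0%. The 2 Arntl windows, which overlap each other, held 2 and 3 ROR elements and were the only ones with more than 1. A D-box was in 0 of the 12, compared with 2.32%. Base composition varied widely, and windows at the start sites ranged from 48.3% GC (Dbp) to 79.3% GC (Nfil3). The median over all sites, which include those away from starts, was 56.7%, and only the Dbp and Per1 windows lay below it. The Nfil3 window lies between its summits and holds neither. The strong Tef window had 65.0% GC and 26 CpG, while that of Per1 had 52.3% GC and 9 CpG.

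Further genes of the clock, 20 in number, were taken from a list of its activators, repressors, receptors, kinases, ubiquitin ligase subunits and associated genes. A reproducible site was found at 19 of the 20, among them Clock, Npas2, Arntl2, Nr1d2, Rora, Rorb, Ciart, Bhlhe40, Bhlhe41, Csnk1d, Csnk1e, Fbxl21, Btrc, Fbxw11, Timeless, Tipin and Noct, and a start site at 17, against 50.0% and 39.2% of all genes. The Rora site lay at the start of Ice2, and the strongest site of the Npas2 region lay at the start of Rpl31. The exception was Per3, another period gene, whose start had peaks of 4.86 in replicate 1 and 6.90 in replicate 2. The start site was missing at Npas2 and Rora as well. With the minimum fold raised to 10, 9 of these 20 genes and 8 of the 10 members had a site, against 27.8% of all genes. All 20 had peaks in both Foxr2 p53LOF replicates, against 63.8% of all genes. They had 0 peaks in the sparse control lists, for which no share over all genes is given here.

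The highest of these genes was Nr1d2, the paralog of Nr1d1, with a fold of 30.9 in replicate 1 (24.2 to 39.0) and 35.5 in replicate 2 (29.1 to 42.8) at rank 95. Its intervals overlapped those of Nr1d1 in both replicates. Bhlhe40, for a repressor that competes for E-boxes, had 23.9 (18.0 to 31.1) and 29.2 (23.5 to 36.0), and Ciart, for a repressor of CLOCK and ARNTL, had 20.3 (14.9 to 27.0) and 20.4 (15.7 to 26.1). Csnk1d, the kinase of the period proteins, had 20.3 (14.9 to 27.0) and 19.4 (14.8 to 25.0). A start site whose lower fold was above 20 was present at 3 of the 20, against 3.29% of all genes, and the median lower fold of the 17 start sites was 9.72, compared with 10.2 over all genes with a start site.

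**Figure D4:**
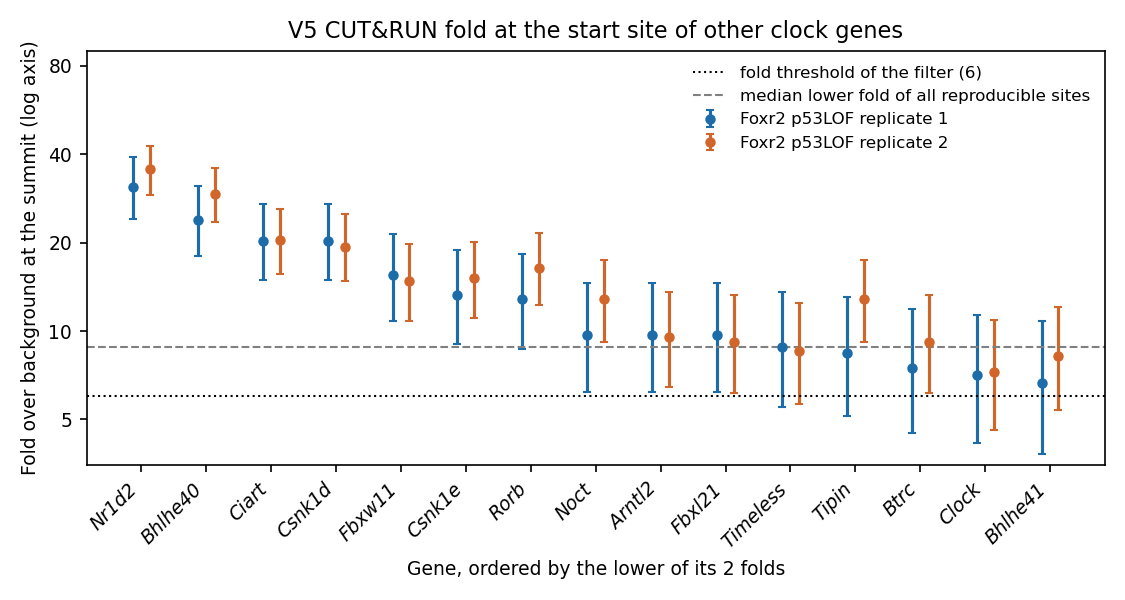
Fold over background at the strongest start site of 15 other clock genes, on a log axis, for the 2 Foxr2 p53LOF replicates. Points are folds at the summit and bars are 95% Poisson intervals (counting error only). The dotted line is the fold minimum of 6 and the dashed line the median lower fold of all sites (8.84). Some of these genes lie near the dashed line and others well above it, with Nr1d2 highest at 30.9 and 35.5.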

How the data were processed

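Foxr2 binding was measured by V5 CUT&RUN in 2 Foxr2 p53LOF replicates and 2 V5 control replicates, grouped by the sample labels. Before deposit, the authors trimmed reads (Trimmomatic 0.39), aligned them to mm10 (BWA 0.7.17) and, by the paper's methods, removed duplicates (Picard 2.26.6). They called peaks with MACS2 2.2.7.1 in each library, and no input library is named. Versions are from the submitters' processing notes and methods. The deposited fold is a ratio of summit to library background, the deposited −log10 p and −log10 q are the MACS2 values of each library, and the deposited score is 10 times the −log10 q as a whole number.

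Peak filters were those of the study's methods (control overlap of at least 10 bp, fold above 6, −log10 q above 6, length under 10000 bp). The study also required overlap with snATAC-seq peaks, a step not applied here. Sites need 1 bp of overlap between replicates. Genes are from GENCODE M21, positions are in GRCm38 (mm10) counted from 1. The library background was found between 0.3 and 4 in steps of 0.0005, from folds up to 30, as the value giving whole fragments (within 0.02). A peak list gives no value where no peak was called and no read total, so precision comes from fragments at the summit, with exact 95% Poisson intervals for counting error. Members, lists and motifs were chosen with earlier results of these data known, so no test was run. Named were all 10 members, the wider clock genes with a site (values for those among the 5 highest that are reported), the 5 genes nearest to Tef in log2 folds, and neighbours starting within 1 kb of a member's site. Car11, Hes7, Ice2, Rpl31, Per3 and the tRNA gene were named after their values were seen. Sequences are from the RefSeq GRCm38.p6 genome. Alternatives covered filters, overlap, region, start window, chromosome level and each replicate left out. Motif windows on single summits were added after seeing the data. Background recovery, site calling and motif search were tested on simulated data. Software was Python 3.11.15, numpy 2.4.6, pandas 2.3.3, scipy 1.17.1 and pysam 0.24.0. Some results for single genes of the wider list are not reported here. The RNA-seq and multiome libraries were not used here.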

Additional observations from a re-analysis of the deposited data

How the results depend on the processing

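Members with a site and with a start site numbered 9 under every alternative except a minimum fold above 10 (8, without Cry2), no minimum on fold or q (10, with Arntl), and leaving out a Foxr2 p53LOF replicate, where the range was 9 to 10 (10 without replicate 1, since Arntl passes in replicate 2). The 20 wider clock genes ranged from 16 to 20 with a site, but only 9 had one at a minimum fold above 10, so that count depends on the threshold while that of the members moved by 1. The lower fold of the Tef site was 52.2 after division by chromosome medians and 54.8 to 63.4 with a replicate left out, and was the same as reported under the other alternatives. The highest lower fold of a single member moved by at least 1 SD of its 2 replicate folds in 10 of 119 cases. Leaving out the replicate with the lower fold returns the fold of the other, so 8 of these follow from how that alternative is built. The other 2 came from division by chromosome medians (Hlf 11.9 and Nr1d1 18.1, from 13.5 and 20.8). With 50 kb on either side the strongest Nr1d1 site became another one, at 22.1. Windows centred on the replicate 1 summit held an E-box at 3 of 10 start sites, and windows on the replicate 2 summit held a ROR element at 1 of 10; both alternatives were chosen after seeing the data. No paired analysis was possible because the peak lists give no value where no peak was called and no test was run; folds rest on 13 or more fragments in replicate 1 and 18 or more in replicate 2, which limits the weak sites most.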
